A study of Arabidopsis thaliana with 5 samples.

Results

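The HAIKU pathway is a small set of genes that act in the endosperm, the tissue that feeds the embryo, and set the final size of the Arabidopsis seed. Its 4 genes analysed here were IKU1 (AT2G35230), MINI3 (AT1G55600), IKU2 (AT3G19700) and SHB1 (AT4G25350), taken by their gene identifiers and not by their values from a table of 33602 genes, of which 26712 are annotated as protein-coding. All 4 were present in the table, and 3 of them passed the filter on low values used for the test between crosses.

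Expression was measured by RNA-seq of endosperm nuclei purified with INTACT, a method in which nuclei carry a tagged envelope protein (NTF) that a biotin ligase (BirA) labels, so that streptavidin beads can capture them. Seeds came from reciprocal crosses of the accessions Col and Ler at 4 days after pollination (4 DAP). In Col × Ler (mother first, n = 2 libraries), male sterile dde2 plants of Col that carry PHE1::NTF and PHE1::BirA (the INT line) received pollen of wild-type Ler. In Ler × Col (n = 3), male sterile pistillata plants (pi-1, in Ler) received pollen of the INT line in Col. Both tags are thus driven by the promoter of PHE1, a paternally expressed imprinted gene, and entered the seed through the mother in Col × Ler and through the father in Ler × Col. The direction of the cross, the sterility mutation of the mother and the parent that gave the tag cannot be told apart in this design. Replicates are numbered 2 and 3 in Col × Ler and 1, 2 and 3 in Ler × Col, as in the sample descriptions. In the titles of the samples, the same Col × Ler libraries carry the numbers 1 and 2. Values are RPKM, which divide the reads of a gene by the length of the gene and the depth of its library, and both parental alleles were counted together.

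The libraries held between 12544667 and 26606820 reads in Col × Ler and between 20319901 and 28539151 reads in Ler × Col. These depths were estimated from the read steps of tRNA genes and refined on genes with a single transcript. The libraries differed widely within each cross. Replicate 2 of each cross listed 12393 (Col × Ler) and 10800 (Ler × Col) genes at 0, whereas the other 3 libraries listed between 647 and 3293. Replicate 1 of Ler × Col stood apart, with 97.4% of protein-coding genes at 1 RPKM or more against 58.9 to 83.4% in the other 4 libraries. According to the methods, first replicates started from a larger mass of siliques than later ones. One statement there sets the first replicates of both crosses aside because of their contamination levels. These levels were calculated from how far the reads deviated from the maternal to paternal genome ratio of endosperm. In another statement, 3 Ler × Col libraries were merged, so values are given here with and without replicate 1 of Ler × Col. Of 9 endosperm markers, between 8 and 9 reached 1 RPKM in Col × Ler and between 7 and 8 in Ler × Col, and PHE1 itself was present at 29.7 to 38.1 RPKM in Col × Ler and 33.9 to 51.0 RPKM in Ler × Col. Markers of the seed coat were also present, with at least 9 of 13 in Col × Ler and at least 8 of 13 in Ler × Col at 1 RPKM or more. In such bulk samples, fewer cells of a type and less RNA per cell cannot be told apart.

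In the pathway, SHB1, a protein with SPX and EXS domains, is known to associate with the promoters of MINI3 and IKU2 and to promote their expression. MINI3 is a WRKY transcription factor (WRKY10) that binds W-boxes, short DNA motifs with the core TTGAC, and IKU1 is a VQ motif protein that interacts with MINI3. IKU2, a leucine-rich repeat receptor kinase, acts downstream, and the cytokinin oxidase gene CKX2 is a known target of MINI3. Loss of IKU1, IKU2 or MINI3 gives small seeds in which the endosperm stops growing and forms cell walls early.

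Because MINI3 acts through W-boxes, the 250 bases before the annotated start of each gene were searched for TTGAC on both strands in the TAIR10.1 sequence, with gene models of the RefSeq annotation. MINI3 itself had 2 matches, SHB1 had 1, and CKX2 had 3, while IKU1 and IKU2 had 0 in this window. The annotated start lies 580 bases before the coding start in IKU1, 181 in SHB1 and 54 in CKX2, but 0 in IKU2 and 1 in MINI3. The windows thus cover unlike parts of these genes, and sequence outside them was not searched. A match is frequent, since 44.9% of 27443 upstream windows hold at least 1. The stretches with matches are shown 5′ to 3′ on the strand of the gene, in lower case, with TTGAC or its reverse complement GTCAA in capitals. The MINI3 stretch lies at chr1:20776295-20776324 (minus strand) and ends at the base before the annotated start, the SHB1 stretch lies at chr4:12966710-12966739 (minus strand), and the CKX2 stretch is the whole window of 250 bases at chr2:8447356-8447605 (minus strand).
MINI3: tgtttcTTGACatcctaaggatttGTCAAa
SHB1: ttttaagagttTTGACttttgattgtctgt
CKX2: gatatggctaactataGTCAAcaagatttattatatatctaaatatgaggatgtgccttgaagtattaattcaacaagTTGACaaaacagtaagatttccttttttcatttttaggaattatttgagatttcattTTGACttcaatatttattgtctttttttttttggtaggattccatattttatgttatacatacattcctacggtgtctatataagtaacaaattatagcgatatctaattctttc
The 2 matches of MINI3 lie on opposite strands within its last 30 bases, the first at -24 and the second at -6 from the annotated start, which is 1 base from the start of its coding sequence. The CKX2 matches start at -234, -172 and -115, and the SHB1 match at -99. Of the E-box CANNTG, which 55.3% of windows hold, IKU1 had 3 matches, MINI3 had 2 and the others 0. The BZR1 motifs CGTGTG and CGTGCG, held by 5.37% and 1.57% of windows, had no match in any of the 5 genes.

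IKU1, the VQ protein gene, lies at chr2:14842291-14844465 (plus strand), with up to 2 exons and a coding sequence of 1209 bases. Its level was 1.94 and 17.5 RPKM in Col × Ler replicates 2 and 3, against 16.9, 3.84 and 18.6 RPKM in Ler × Col replicates 1, 2 and 3. These values rest on 52 and 995 reads in Col × Ler and on 927, 167 and 1140 reads in Ler × Col. In 3 libraries, IKU1 therefore stood between 16.9 and 18.6 RPKM whatever the cross, and both replicate 2 libraries were far below. Its 95% counting interval in Col × Ler replicate 2 was 1.45 to 2.54 RPKM.

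MINI3, the WRKY factor gene at chr1:20774046-20776294 (minus strand), has 5 exons and a coding sequence of 1458 bases. It reached 1.69 and 25.7 RPKM in Col × Ler and 18.5, 6.73 and 20.8 RPKM in Ler × Col. The lowest of these values rests on 31 reads (95% counting interval 1.15 to 2.40 RPKM) and the highest on 999 reads. Col × Ler thus held both the lowest and the highest MINI3 level of the series, and the crosses overlapped.

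IKU2, the receptor kinase gene at chr3:6843662-6847275 (plus strand), has 2 exons and a coding sequence of 2976 bases. It was measured at 0.852 and 2.60 RPKM in Col × Ler, against 15.8, 0 and 2.15 RPKM in Ler × Col. The value of 15.8 RPKM in Ler × Col replicate 1 rests on 1395 reads, whereas the 0 in Ler × Col replicate 2 allows up to 0.0427 RPKM (3 reads). Apart from replicate 1 of Ler × Col, IKU2 stayed below 3 RPKM. The last 307 bases of IKU2 overlap AT3G19710 on the opposite strand, which was listed at 1.52 and 2.23 RPKM in Col × Ler and at 12.8, 0 and 7.08 RPKM in Ler × Col. Whether the counting used the strand is not given in the sources used here, so reads from this overlap cannot be assigned to either gene.

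SHB1, at chr4:12962965-12966629 (minus strand) with 11 exons and a coding sequence of 2238 bases, was the least expressed. Its level was 0 and 0.218 RPKM in Col × Ler, against 3.43, 0 and 0.0157 RPKM in Ler × Col. There were 0 and 13 reads in Col × Ler, against 196, 0 and 1 reads in Ler × Col. The zeros of the replicate 2 libraries allow up to 0.107 RPKM in Col × Ler and 0.0660 RPKM in Ler × Col (3 reads each), so that SHB1 was at the detection limit in most libraries. These intervals and limits cover counting error only.

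**Figure D1:**
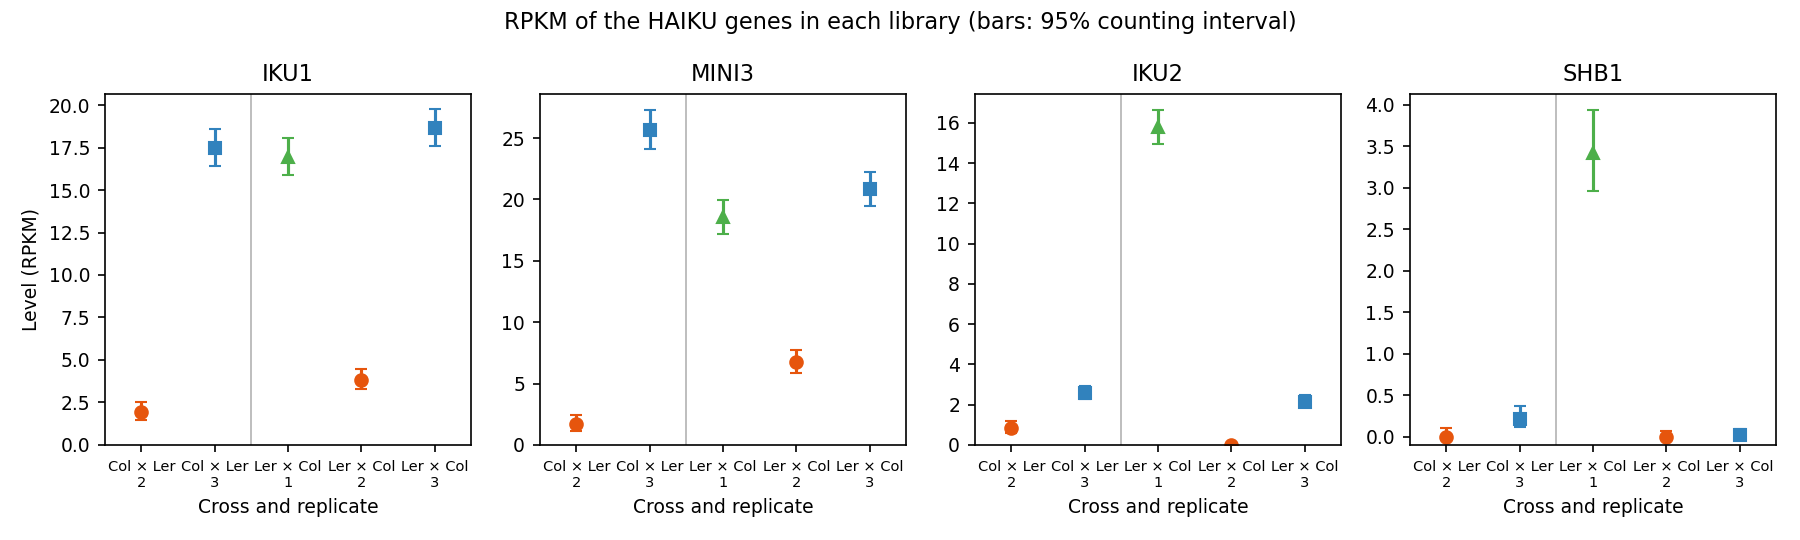
RPKM of each HAIKU gene (y axis, a scale per gene) in the 2 Col × Ler and 3 Ler × Col libraries (x axis, cross and replicate number), with bars for the 95% counting interval (for values at 0, up to the limit of 3 reads) and circles, squares and triangles for replicates 2, 3 and 1. IKU1 and MINI3 are low in both replicate 2 libraries, while IKU2 and SHB1 are high in Ler × Col replicate 1 only.

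Averaged over all 5 libraries, MINI3 (14.7 ± 10.1 RPKM, SD) and IKU1 (11.8 ± 8.15 RPKM) stood above IKU2 (4.27 ± 6.51 RPKM) and SHB1 (0.732 ± 1.51 RPKM). For each pair of neighbours in this order, the larger of both SDs exceeded the distance between the means, so the order was read within libraries. MINI3 was above IKU1, IKU1 above IKU2 and IKU2 above SHB1 in Col × Ler replicate 3 and in Ler × Col replicates 1 and 3. In Ler × Col replicate 2 the order was the same, with IKU2 and SHB1 both at 0. In Col × Ler replicate 2, IKU1 was above MINI3. The counting intervals of MINI3 and IKU1 overlapped in that library and in Ler × Col replicates 1 and 3, and those of IKU1 and IKU2 in Ler × Col replicate 1, so that these neighbours were not separated there. Between the partner genes MINI3 and IKU1, the ratio of RPKM was 0.873 and 1.47 in Col × Ler and 1.10, 1.75 and 1.12 in Ler × Col. The ratio of IKU2 to MINI3 varied more, with 0.504 and 0.101 in Col × Ler and 0.851, 0 and 0.103 in Ler × Col. In the replicate 3 libraries of the crosses, IKU2 was therefore at about the same fraction of MINI3, 0.101 in Col × Ler and 0.103 in Ler × Col.

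Because the libraries differ in how many genes they detect, each gene was also placed among the 26712 protein-coding genes of its library, with tied genes given their mean rank. MINI3 stood at percentiles 39.2 and 77.8 in Col × Ler and at 72.3, 74.4 and 73.5 in Ler × Col. IKU1 stood at 40.5 and 68.8 in Col × Ler and at 68.9, 63.5 and 71.3 in Ler × Col. By rank, then, Ler × Col replicate 2 was no longer low for MINI3, and Col × Ler replicate 2 alone stood below the other 4 libraries for both genes. IKU2 stood at 34.3 and 30.5 in Col × Ler and at 65.9, 11.2 and 33.5 in Ler × Col, so that the high value of Ler × Col replicate 1 remained by rank. SHB1 stood between 4.60 and 13.4 in Col × Ler and between 4.02 and 13.3 in Ler × Col. Its 3.43 RPKM in Ler × Col replicate 1 was thus a low rank among the genes of that library, and the ranks in the replicate 2 libraries are those of all genes tied at 0.

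**Figure D2:**
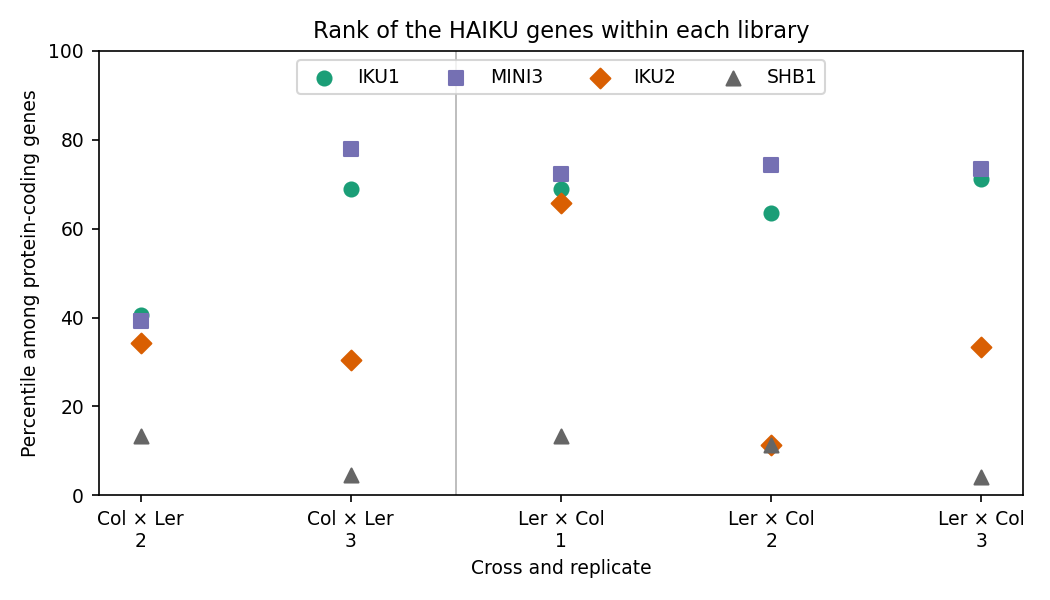
Percentile of each HAIKU gene among the 26712 protein-coding genes of a library (y axis), for the 2 Col × Ler and 3 Ler × Col libraries (x axis, cross and replicate number). MINI3 and IKU1 lie between 63.5 and 77.8 in all libraries except Col × Ler replicate 2, where they lie at 39.2 and 40.5.

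The study made the reciprocal crosses to separate expression by parent of origin. Here the summed level of both alleles was compared between the directions of the cross, and no difference of a HAIKU gene between Col × Ler and Ler × Col exceeded the spread of the libraries. With limma on log2(RPKM + 1), which makes changes of weakly expressed genes look smaller, 0 of the 3 tested genes were called at an adjusted p under 0.05, and 0 had an unadjusted p under 0.05. Over all 25579 tested genes, limma called 0.00391% higher and 0.00391% lower in Col × Ler, which is 1 gene each, and 266 genes had an unadjusted p under 0.05, so a count of 0 among 3 is what the background share gives. The groups overlapped for all 4 genes, against 6.17% of tested genes that lay wholly higher in Col × Ler and 1.92% that lay wholly lower.

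IKU1 averaged 9.70 ± 10.98 RPKM in Col × Ler and 13.1 ± 8.10 RPKM in Ler × Col (SD), a log2 fold change of -0.70 (limma, SE 1.03, 95% interval -2.72 to 1.33, adjusted p = 1.00). MINI3 averaged 13.7 ± 17.0 RPKM in Col × Ler and 15.4 ± 7.56 RPKM in Ler × Col, a log2 fold change of -0.81 (limma, SE 0.97, 95% interval -2.72 to 1.09, adjusted p = 1.00). For IKU2, the means were 1.72 ± 1.23 RPKM in Col × Ler and 5.97 ± 8.55 RPKM in Ler × Col, and the log2 fold change was -0.54 (limma, SE 1.31, 95% interval -3.11 to 2.03, adjusted p = 1.00). SHB1 reached 1 RPKM in 1 library only and was not tested. It averaged 0.109 ± 0.154 RPKM in Col × Ler and 1.15 ± 1.97 RPKM in Ler × Col, and without a filter its log2 fold change was -0.58 (limma, SE 0.71, adjusted p = 1.00). Exact two-sided permutation tests over the 5 libraries, which cannot go below 0.1, gave p = 0.6 for IKU1, 0.7 for MINI3, 0.9 for IKU2 and 0.9 for SHB1.

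Single libraries set the sign of these differences. Without Col × Ler replicate 2, the log2 fold change was 0.63 for IKU1 and 0.84 for MINI3, and without Col × Ler replicate 3 it was -2.02 and -2.47 for these genes. Without Ler × Col replicate 1, IKU2 was at 0.54 and SHB1 at 0.13, whereas IKU1 and MINI3 stayed below 0 at -0.41 and -0.62. In the fit without Ler × Col replicate 1, IKU1, MINI3 and IKU2 did not pass the test. The SHB1 value is a difference of means and was not tested. Values without a Col × Ler library rest on a single library of that cross. The median over all tested genes was 0.10 with all libraries.

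**Figure D3:**
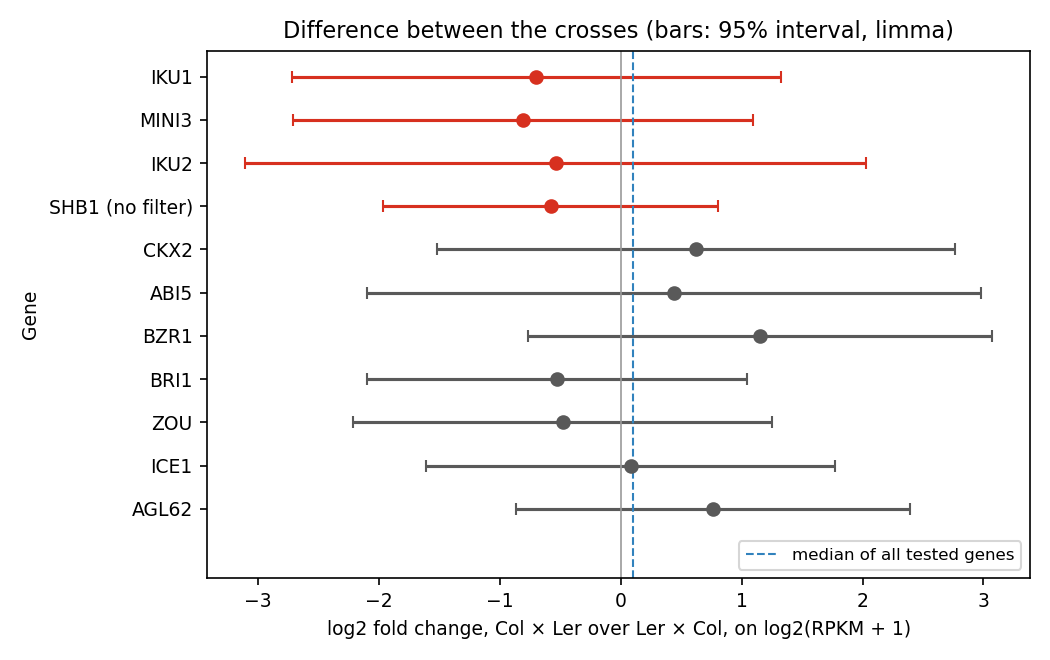
Log2 fold change of Col × Ler over Ler × Col on log2(RPKM + 1) (x axis) for the 4 HAIKU genes (red) and 7 genes linked to the pathway (grey), with 95% intervals from limma and a dashed line at the median of all tested genes, 0.10. Every interval spans 0; SHB1 is from the fit without a filter.

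For IKU1, MINI3 and IKU2, replicates 2 and 3 of a cross lay further apart on the log2 scale than the means of the crosses did. The replicate 2 libraries were the lowest of the 5 for all 4 HAIKU genes, as were 49.97% of all tested genes. In Col × Ler, MINI3 in replicate 3 was 15.2 times its level in replicate 2 and IKU1 9.02 times, which are log2 differences of 3.31 and 2.65 against a median of 0.73 over all tested genes. Only 1.36% of tested genes differed by as much as MINI3 in this direction, and 4.05% by as much as IKU1. In Ler × Col, MINI3 in replicate 3 was 3.09 times and IKU1 4.86 times its level in replicate 2, log2 differences of 1.50 and 2.02 against a median of 1.26, and 39.0% and 18.6% of genes differed by as much. The gap between replicates was thus in the upper tail of all genes for MINI3 and IKU1 in Col × Ler and nearer the bulk of genes in Ler × Col. IKU2 differed by 0.96 in Col × Ler and by 1.65 in Ler × Col on the log2 scale, which 41.9% and 32.3% of genes reached.

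Markers of the seed coat moved with the same libraries. Their summed level over 13 genes was 111 and 502 RPKM in Col × Ler replicates 2 and 3, against 298, 52.9 and 450 RPKM in Ler × Col replicates 1, 2 and 3. For 12 of the 13, the replicate 2 libraries were the lowest of the 5, as they were for 49.97% of all tested genes. TT16 was at 0 in both replicate 2 libraries, and TT2 in that of Col × Ler. The 9 endosperm markers summed to 689 and 388 RPKM in Col × Ler and to 541, 876 and 453 RPKM in Ler × Col, with 3 of 9 lowest in the replicate 2 libraries and AGL36 at 0 in both. ZOU made up most of the endosperm sum in the replicate 2 libraries, and the other 8 markers summed to 157 and 199 RPKM in Col × Ler and to 155, 99.5 and 162 RPKM in Ler × Col. Seed coat levels were thus low in both libraries in which IKU1 and MINI3 were low in RPKM. Endosperm levels without ZOU were lowest in 1 of them, Ler × Col replicate 2. By rank, MINI3 was not low in that library, at percentile 74.4 against 39.2 in Col × Ler replicate 2. The 6 photosynthesis genes summed to 1840 and 4043 RPKM in Col × Ler and to 1849, 598 and 3160 RPKM in Ler × Col. Depth was lowest in the replicate 2 libraries too. The part of these differences in the levels of IKU1 and MINI3 was not tested.

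IKU2 and SHB1 were highest in Ler × Col replicate 1, as were 46.9% of all tested genes. Against the mean of replicates 2 and 3 of the same cross, this library was higher by 3.24 for IKU2 and by 2.13 for SHB1 on the log2 scale, with a median of 0.97 over all tested genes, and 6.74% and 22.7% of genes differed by as much. IKU1 and MINI3 differed by 0.88 and 0.59, below that median. Of 4 embryo markers, 3 were highest in this library, among them PLT1, a root stem cell regulator, at 0.0746 and 2.22 RPKM in Col × Ler and at 22.6, 0.368 and 0.672 RPKM in Ler × Col replicates 1, 2 and 3. Summed over the 4 genes, embryo markers were at 66.9 and 124 RPKM in Col × Ler and at 61.5, 24.7 and 104 RPKM in Ler × Col. WOX2 was at 0 in Ler × Col replicate 2. WOX8 was at 65.4 and 119 RPKM in Col × Ler and at 24.2, 23.6 and 103 RPKM in Ler × Col. It made up most of the sum in every library but Ler × Col replicate 1. The part of this library's wide detection of genes in the levels of IKU2 and SHB1 was not tested.

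Each HAIKU gene belongs to a gene family, and its level was set beside that of its relatives in RPKM. Among 29 VQ genes, IKU1 ranked 5 by its mean over the libraries, with a median of 1.93 RPKM over the other 28 and 54.1 RPKM for the highest, AT1G28280. MINI3 ranked 3 among 13 group I WRKY genes, behind WRKY1 at 24.98 RPKM and one other, with a median of 4.71 RPKM over the other 12. MINI3 and IKU1 were thus in the upper part of their families, although MINI3 ranked 7 in Col × Ler replicate 2 and 3 in Col × Ler replicate 3, against 6, 4 and 3 in Ler × Col. The list of receptor kinases of subfamily XI may not hold every member. PEPR1, a receptor for danger peptides, was the highest in it at 18.4 RPKM. IKU2 ranked 7 among the 15 listed kinases by its mean, with a median of 3.96 RPKM over the others. Its mean rests on Ler × Col replicate 1, since IKU2 ranked 9 and 9 in Col × Ler and 5, 13 and 10 in Ler × Col, below the median of its relatives in every library but that one. SHB1 ranked 9 among 11 genes of the PHO1 family, named after the phosphate exporter PHO1, in which AT2G03240 was highest at 7.04 RPKM and the median of the others was 1.74 RPKM.

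**Figure D4:**
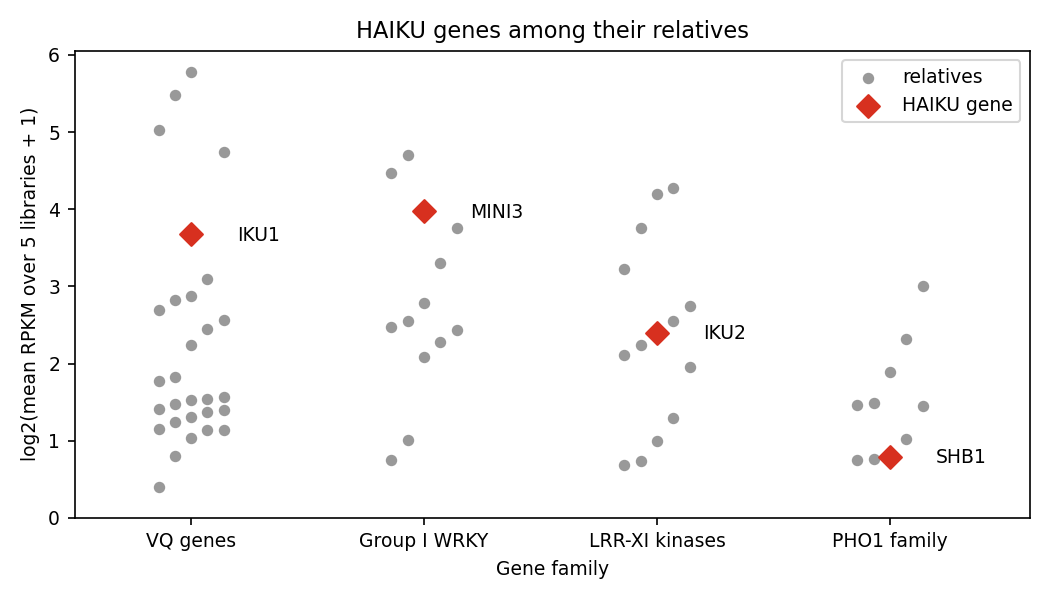
Mean RPKM over the 5 libraries, as log2(mean RPKM + 1) (y axis), of the HAIKU genes (red diamonds) and their relatives (grey points) in 4 gene families (x axis; points are spread sideways for visibility). Among the genes listed, IKU1 ranks 5 of 29, MINI3 3 of 13, IKU2 7 of 15 and SHB1 9 of 11.

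Between the crosses, 0 of 23 tested VQ relatives, 0 of 10 WRKY relatives, 0 of 11 receptor kinases and 0 of 7 PHO1 relatives were called by limma, and 0 had an unadjusted p under 0.05. Their median log2 fold changes were -0.37, -0.29, -0.19 and -0.17 in this order, against 0.10 over all tested genes. Among relatives, the least expressed were AT4G37710 (VQ, mean 0.323 RPKM), WRKY26 (0.686 RPKM), GSO2 (0.606 RPKM), a receptor of embryo surface formation, and AT2G03250 (PHO1 family, 0.683 RPKM).

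Genes linked to the pathway were described from a list of 7, all of which were tested. Limma called 0 of 7, with 0 at an unadjusted p under 0.05, and their median log2 fold change was 0.44. CKX2, the MINI3 target that degrades cytokinin, was at 6.50 and 14.3 RPKM in Col × Ler and at 6.31, 2.57 and 11.9 RPKM in Ler × Col (log2 fold change 0.62). It was above IKU2 in 4 of 5 libraries and, unlike IKU2, was not highest in Ler × Col replicate 1. ABI5, an abscisic acid response factor known to repress SHB1, was at 5.33 and 2.91 RPKM in Col × Ler and at 5.09, 0.973 and 3.08 RPKM in Ler × Col. BZR1, the brassinosteroid response factor, was at 17.7 and 17.5 RPKM in Col × Ler, against 6.57, 3.50 and 16.2 RPKM in Ler × Col. BRI1, the brassinosteroid receptor, was at 21.9 and 18.3 RPKM in Col × Ler and at 33.5, 37.7 and 19.99 RPKM in Ler × Col. The Col × Ler levels of BZR1 lay above all those of Ler × Col, as they did for 6.17% of all tested genes. Its log2 fold change of 1.15 did not pass the test.

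Of the endosperm regulators of the same list, ZOU and ICE1 were above all HAIKU genes in every library. ZOU, a bHLH factor of endosperm breakdown, was at 532 and 190 RPKM in Col × Ler and at 386, 777 and 291 RPKM in Ler × Col, with the replicate 2 libraries the highest of the 5. Its partner ICE1 was at 286 and 448 RPKM in Col × Ler and at 186, 216 and 959 RPKM in Ler × Col. AGL62, a type I MADS factor that holds back endosperm cell wall formation, was at 30.4 and 26.9 RPKM in Col × Ler, against 15.7, 20.4 and 13.8 RPKM in Ler × Col. The AGL62 levels also lay wholly higher in Col × Ler, again a pattern of 6.17% of all tested genes. Its log2 fold change of 0.77 did not pass the test. For none of the 7 genes were the replicate 2 libraries the lowest of the 5. These libraries were the lowest for all 4 HAIKU genes, though for SHB1 by 1 read only, and for 49.97% of all tested genes. CKX2 missed the pattern narrowly, at 6.50 RPKM in Col × Ler replicate 2 against 6.31 RPKM in Ler × Col replicate 1. Among relatives, the pattern held for 9 of 12 WRKY genes, 7 of 10 PHO1 genes, 8 of 14 receptor kinases and 12 of 28 VQ genes.

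The genes with the pattern most like each HAIKU gene were found among 24143 protein-coding genes with a mean of at least 1 RPKM, by the root mean square (RMS) difference of log2(RPKM + 1) over the 5 libraries after each gene's own mean was subtracted. For IKU1 they were GONST4 (RMS difference 0.061), a Golgi nucleotide sugar transporter, AT5G38270 (0.094), an F-box protein gene, and TRZ1 (0.117), a tRNA processing enzyme. For MINI3 they were AT3G56250 (0.115), RALFL25 (0.141), a gene for a RALF-like peptide, and AT4G13500 (0.163). For IKU2 they were SLP3 (0.054), a subtilisin-like protease, AT2G37980 (0.076), an O-fucosyltransferase family gene, and AT2G13547 (0.092). For SHB1 they were AT5G16230 (0.061), a stearoyl-ACP desaturase family gene, AT4G02420 (0.083), a lectin protein kinase gene, and GAD5 (0.101), a glutamate decarboxylase. Among the HAIKU genes, IKU1 and MINI3 were the closest pair (0.29), with IKU1 at rank 61 from MINI3 and MINI3 at rank 176 from IKU1. IKU2 and SHB1 followed (0.69), and the other pairs lay between 1.03 and 1.23. With 5 libraries that differ in depth and in the number of genes detected, many genes share such patterns. The 1 added to RPKM makes changes of low values look smaller, so genes close on this scale can differ in their RPKM ratios. In Ler × Col replicates 1 and 3, SHB1 was at 3.43 and 0.0157 RPKM, while AT5G16230 was at 11.4 and 2.01 RPKM.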

How the data were processed

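RNA of INTACT-purified endosperm nuclei was sequenced as paired-end poly(A) libraries, 2 of Col × Ler and 3 of Ler × Col. The authors deposited RPKM values per gene and library; the submitters' processing notes name TopHat2 2.1 and TAIR10, and the counting program is not given in the sources used here. No column was left unassigned (0 columns). No read counts were used for tests. Depth was first estimated from RPKM steps of tRNA genes and then refined on genes with a single transcript. At the final depth, tRNA values under 20 reads were whole within 0.05 in 95.0 to 99.2% of cases. The first step sought whole reads in these same tRNA genes, so this share is not an independent check. Reads of the HAIKU genes were recovered with the shortest gene length at which all libraries gave whole reads within 0.03. All longer lengths that did so, up to 6000 bases, were whole multiples of the shortest. That length was 2142 bases for IKU1, which is not a length of the annotation used here, 1462 for MINI3, 3460 for IKU2 and 2238 for SHB1. The methods describe the replicates as biological. Neither the methods nor the labels state whether they were separate plantings, so p-values measure the spread between these libraries.

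Genes with at least 1 RPKM in at least 2 libraries were tested on log2(RPKM + 1) with limma 3.58.1 in R 4.3.3 (trend of variance on mean, cross as the only term, Benjamini-Hochberg, threshold 0.05). The test was also run on simulated data with planted changes. Those data held independent noise per gene and no differences shared by a library, so they cannot show how the test behaves under such differences. Python 3.11.15, NumPy 2.4.6, SciPy 1.17.1 and pandas 2.3.3 were used otherwise, with 95% Poisson intervals for reads. Names were matched for 32835 identifiers, and sequences were read from TAIR10.1 with RefSeq gene models. The HAIKU genes and all lists were chosen with earlier results of these data known. Named were the HAIKU genes, CKX2, ABI5, BZR1, ZOU, ICE1, AGL62, TTG2 and PHE1, the highest and lowest gene of each list by mean RPKM, calls, and the 3 nearest patterns per HAIKU gene. BRI1, PLT1, WOX8, the markers at 0 and AT3G19710 were named after their values were seen. Entries whose name the annotation did not match were dropped, 1 of 11 maternal seed size genes and 2 of 13 FIS and MADS genes. Alternatives were other pseudocounts, filters, normalizations, no variance trend, a replicate block, and leaving out each library.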

Additional observations from a re-analysis of the deposited data

How the results depend on the processing

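No alternative called a HAIKU gene, a relative of one, or a gene of the linked, maternal or FIS and MADS lists; without Ler × Col replicate 3, limma called 1 of the 6 photosynthesis genes higher in Col × Ler. Leaving out 1 library at a time gave log2 fold changes from -2.02 to 0.63 for IKU1, -1.49 to 0.54 for IKU2 and -2.47 to 0.84 for MINI3. For IKU2, a pseudocount of 0.1 gave 0.069 and a replicate block 0.54, also without Ler × Col replicate 1 (0.54). All other alternatives kept the direction of IKU1, IKU2 and MINI3. Libraries with the same number in the descriptions deviated together across genes (r = 0.29, 2 pairs), but the labels give no shared batch, so the numbers were not taken as pairs. The replicate block gave -0.41 for IKU1 and -0.62 for MINI3.

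Over all genes, 1 was called higher and 1 lower in Col × Ler. Calls higher and lower were 4 and 3 with a pseudocount of 0.1, 5 and 1 with 5, 4 and 2 with no filter, 5 and 1 with 1 RPKM in every library, and 0 and 0 with quantile normalization, median centring or no variance trend (476, 531 and 171 genes at an unadjusted p under 0.05). The replicate block gave 77 and 9, or 81 and 9 without Ler × Col replicate 1, and a block by the numbers of the sample titles, in which the Col × Ler libraries are 1 and 2, gave 1 and 1. Leaving out 1 library gave 0 to 83 higher and 0 to 12 lower. Median centring moved the median log2 fold change of all tested genes to -0.29, from which changes are to be read, and the block moved it to 0.44. The cause of these shifts was not tested. With 2 and 3 libraries, the 95% intervals of the HAIKU genes are wide, and SHB1 was too close to 0 for a test with a filter.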

Other observations

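Seed size is also set from the maternal side, and 10 genes of this kind were described, all of them tested. Limma called 0 of 10 between the crosses, with 0 at an unadjusted p under 0.05, and their median log2 fold change was -0.46. ARF2, an auxin response factor that limits integument growth, had the highest mean, with 315 and 82.1 RPKM in Col × Ler and 100 (replicate 1), 241 and 99.6 RPKM in Ler × Col. The replicate 2 libraries were the highest of the 5 for ARF2, a pattern of 2.76% of all tested genes and the opposite of the HAIKU genes. For 6 of the 10 genes, the replicate 2 libraries were the lowest of the 5, the pattern of the HAIKU genes and of 49.97% of all tested genes. CYP78A6, a cytochrome P450 that promotes seed growth, had the lowest mean, with 0 and 1.28 RPKM in Col × Ler and 5.47, 0.0508 and 0.524 RPKM in Ler × Col. TTG2, a WRKY gene of the seed coat and a relative of MINI3, was at 0 and 3.79 RPKM in Col × Ler and at 7.47, 0.705 and 4.19 RPKM in Ler × Col.

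Of 11 genes of the FIS Polycomb complex and the type I MADS family, which control early endosperm growth, 10 were tested and 0 were called by limma, with 0 at an unadjusted p under 0.05 and a median log2 fold change of 0.28. FIE, a Polycomb subunit, had the highest mean, with 106 and 92.7 RPKM in Col × Ler and 31.9, 35.8 and 108 RPKM in Ler × Col. AGL90 had the lowest, with 0 and 2.69 RPKM in Col × Ler and 0.772, 0 and 0.218 RPKM in Ler × Col.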
